A study of Mus musculus with 12 samples.

Results

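The genes described here handle iron and heme: the uptake genes Tfrc and Slc11a2, the ferritin genes Fth1 and Ftl1, the exporter Slc40a1, the iron sensors Ireb2 and Aco1, and the heme genes Slc25a37, Fech and Hmox1. They were chosen by name, as 10 of the 15663 genes listed in the deposited tables, and all 10 were listed for every library and passed the filter on low values. RNA was sequenced from hearts of C57/BL 6 mouse embryos at embryonic day 9.5, in 12 libraries that fall into 4 genotype groups of 3. All groups carried NkxCre, a Cre recombinase driver, so a deletion is limited to the cells in which the driver is active and the other cells of the heart keep their alleles. The controls were NkxCre.Asb2fl/+ and so had 1 floxed Asb2 allele. The Asb2 cKO (conditional knockout) was NkxCre.Asb2fl/fl, the Flna-labelled group was NkxCre.Asb2fl/+.Flnafl/fl, and the group called the double mutant, from its label, was NkxCre.Asb2fl/fl.Flnafl/fl. The series' design text counts the Flna-labelled group as a second kind of control. Asb2 encodes the substrate receptor of a ubiquitin ligase that acts on filamins, and Flna encodes filamin A, an actin crosslinker. The comparisons ask which transcripts differ where Asb2 is floxed on both alleles, with and without the Flna label.

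Cells take up iron as transferrin bound to the transferrin receptor, carry it out of the endosome through SLC11A2, store it in ferritin and export it through ferroportin, the product of Slc40a1. The iron regulatory proteins, encoded by Aco1 and Ireb2, bind a hairpin called the iron-responsive element when iron is scarce. Binding in the 3′ UTR protects Tfrc messenger RNA from decay, while binding in a 5′ UTR blocks translation of ferritin and ferroportin, a step that RNA levels do not show. In cells that make hemoglobin, iron enters mitochondria through mitoferrin-1 (Slc25a37), ferrochelatase (Fech) inserts it into protoporphyrin, and heme oxygenase-1 (Hmox1) breaks heme down. At this stage the blood in the heart holds primitive red cells from the yolk sac, which make large amounts of hemoglobin and have a high demand for iron.

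The iron-responsive elements are printed here because they are the feature by which transferrin receptor, ferritin and ferroportin messages are known to read cell iron. A search of the sense strand of GENCODE M21 transcripts (GRCm38/mm10) looked for a C, a stem of 5 bases, the loop CAGTGN and 5 bases that pair with the stem, with G-T pairs allowed. Such a match stands in the 5′ UTR of 28 of 20544 genes (0.136%) and in the 3′ UTR of 127 of 20920 genes (0.607%). It was found in 4 of the 10 genes, Tfrc, Fth1, Ftl1 and Slc40a1. The transcript of Tfrc holds 4 matches in its 3′ UTR, at chr16:32631219-32631248, chr16:32631598-32631627, chr16:32631663-32631692 and chr16:32631710-32631739, all on the plus strand. The others hold 1 match each in the 5′ UTR. That of Fth1 is at chr19:9982732-9982761 on the plus strand. Those of Ftl1, at chr7:45459778-45459807, and Slc40a1, at chr1:45925464-45925493, are on the minus strand. Each is written 5′ to 3′ in the sense of the gene, with the loop in capitals.
Tfrc site a: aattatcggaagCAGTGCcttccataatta
Tfrc site b: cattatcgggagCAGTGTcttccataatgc
Tfrc site c: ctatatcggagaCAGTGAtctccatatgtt
Tfrc site d: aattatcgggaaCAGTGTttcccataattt
Fth1: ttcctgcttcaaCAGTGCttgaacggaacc
Ftl1: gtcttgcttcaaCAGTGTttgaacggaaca
Slc40a1: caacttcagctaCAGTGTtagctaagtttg
The elements of Fth1 and Ftl1 share 8 bases before and 11 after the loop, and the RNA of these genes differed in pattern across the libraries. No match in the other 6 genes says only that this strict pattern is not in the UTRs searched. Elements with another loop or an unpaired stem base would be missed, so counts of matches are not counts of elements.

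Levels are in CPM, reads scaled by library size, as deposited, and group values are the mean ± SD of 3 libraries. Differences are of log2(CPM + 0.5), on which changes of low genes look smaller than they are. Each comes with its standard error (SE) and with the adjusted p (Benjamini-Hochberg over all genes) of limma's moderated test. A gene is said to have risen or fallen where that adjusted p was below 0.05. Libraries held 25954539 to 42473118 reads in listed genes, so 1 read was worth 0.0239 to 0.038 CPM. Even the least abundant of the iron genes, Slc40a1, had at least 111 reads in each library. The labels do not say whether libraries came from separate embryos or pools, and p-values then measure only the spread between these libraries, which may be partly technical.

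The targeted genes were read first. Asb2 stood at 289, 183 and 218 CPM in the controls, 77.8, 163 and 115 CPM in Asb2 cKO hearts, 125, 113 and 197 CPM in the Flna-labelled libraries and 122, 121 and 153 CPM in the double mutants. It was lower in every Asb2 cKO and double mutant library than in every control. The Flna-labelled libraries, with 1 floxed Asb2 allele like the controls, overlapped both of these groups, and 2 of the 3 lay below every control, so Asb2 RNA does not set the double mutant apart from the Flna-labelled group. Flna was not lower in either group labelled Flnafl/fl, at 958, 1011 and 989.5 CPM in the Flna-labelled libraries and 1012, 1012 and 1146 CPM in the double mutants, against 490.3, 554 and 721 CPM in the controls and 1032, 869 and 725 CPM in Asb2 cKO hearts. Flna RNA thus does not bear out the label of either group, and any direction drawn from the Flna genotype of either rests on its label. Flna RNA was also above every control in the Asb2 cKO, which has no Flna label, so its level does not follow that label. Xist reached 1 CPM in 2 control, 2 Asb2 cKO, 0 Flna-labelled and 1 double mutant libraries, so this RNA of the inactive X chromosome was spread unevenly over the groups. Differences of the Flna-labelled group from controls thus cannot be fully told apart from differences that go with Xist, and so with the sex of the embryos. All 10 cardiomyocyte markers were listed, and their summed level was 26410 to 40120 CPM in controls, 22070 to 37510 in the Asb2 cKO, 16480 to 30760 in the Flna-labelled libraries and 25800 to 40590 in the double mutants. Hemoglobin genes took 0.708 to 0.782% of the signal in controls, 0.304 to 0.411% in Flna-labelled, 0.0511 to 0.117% in Asb2 cKO and 0.0332 to 0.0604% in double mutant libraries. These 4 ranges do not overlap except for those of the Asb2 cKO and the double mutant.

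Compared with the controls, hearts with both Asb2 alleles floxed had lower RNA of Slc25a37, Fech, Fth1 and Slc11a2, and higher RNA of Tfrc and Hmox1. Slc25a37, Fech and Fth1 were also below every control in the Flna-labelled group, without passing limma's test there. Between the double mutant and the Flna-labelled group Fth1 did not pass (-0.22, adjusted p = 0.135, limma). In the Asb2 cKO, 2 of the 10 genes rose and 4 fell, where 21.6% of all 14034 genes tested changed (10.7% higher and 10.9% lower). In the double mutant, 2 rose and 5 fell, where 32.3% of 14015 genes changed (15.6% higher and 16.7% lower). The 3 libraries of each group did not overlap for 6 of the genes in the Asb2 cKO against control, where 41.4% of all genes showed no overlap, and for 7 in the double mutant, where 47.8% did. The median difference of the 10 genes was -0.11 in the Asb2 cKO, beside -0.01 over all genes, and -0.34 in the double mutant, beside 0.01. Both comparisons use the same control libraries, so their values are given side by side and not as separate support.

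**Figure D1:**
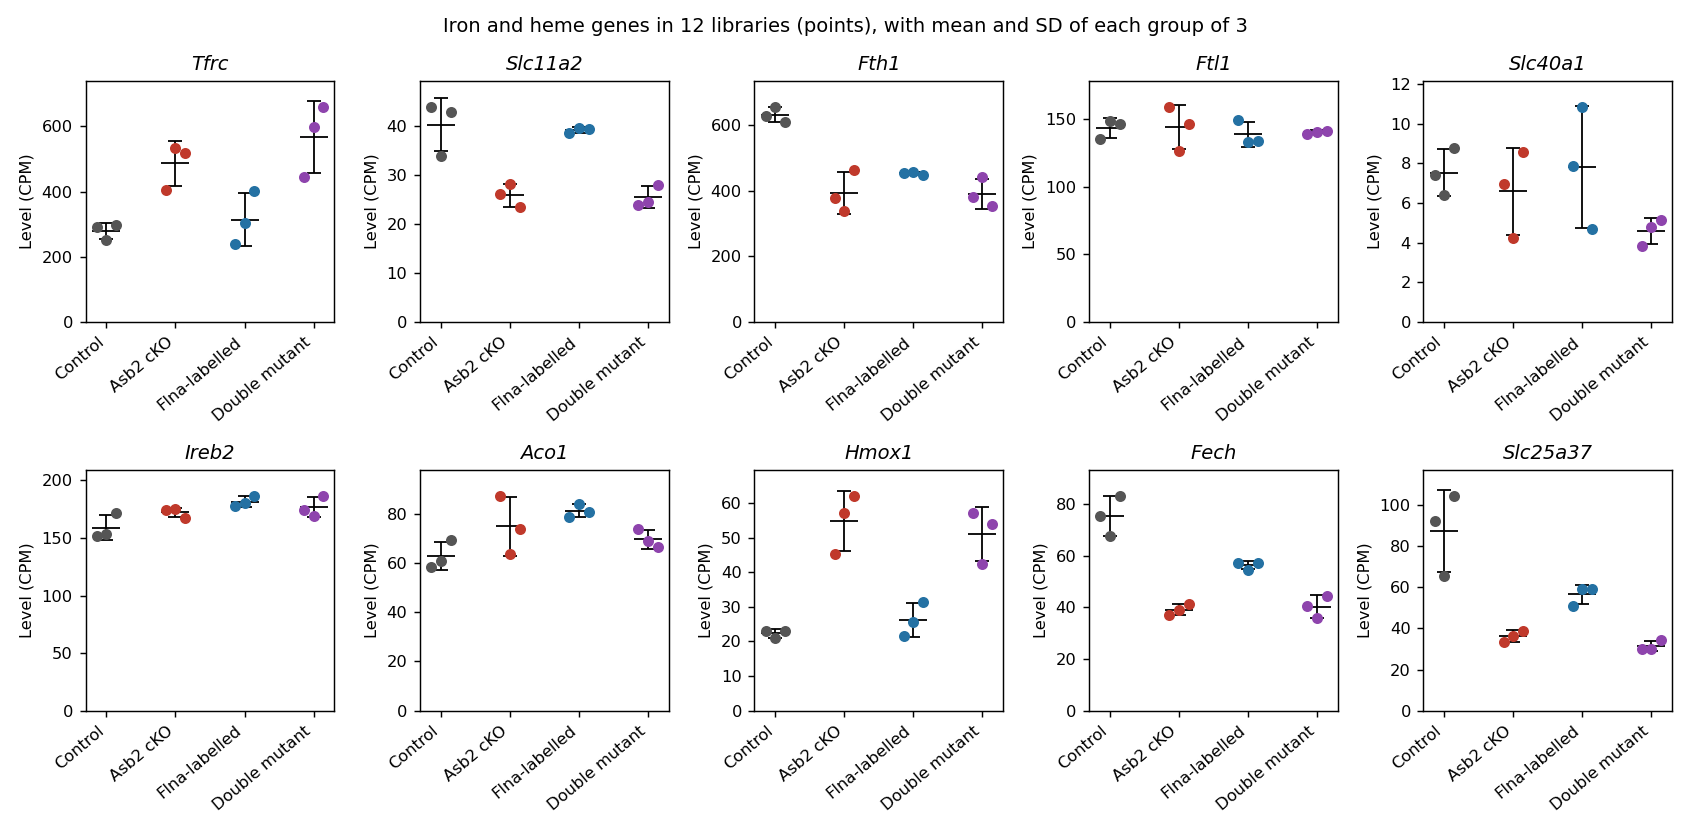
Level in CPM (vertical axis, from 0) of each of the 10 genes in every library, with the 4 groups along the horizontal axis; points are libraries, and bars give the mean and SD of the 3 libraries of a group. Slc25a37 and Fech lie lowest and Hmox1 highest in the Asb2 cKO and double mutant libraries, while Ftl1 stays between 127 and 159 CPM throughout.

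Among the uptake genes, Tfrc (ENSMUSG00000022797, chromosome 16, 32608920 to 32632794, plus strand), the receptor for iron-loaded transferrin, was measured at 290.4, 251 and 298 CPM in the controls. Its level was 405, 535 and 518 CPM in Asb2 cKO hearts, 238, 302 and 401 CPM in the Flna-labelled libraries, and 446, 598 and 660.0 CPM in the double mutants. Every Asb2 cKO and double mutant library lay above every control and Flna-labelled library, whereas controls and Flna-labelled libraries overlapped. Tfrc rose 1.73-fold in the Asb2 cKO (log2 difference 0.79, SE 0.15, adjusted p = 0.00587, limma). The rise in the double mutant was 2.01-fold (SE 0.15 on the log2 scale, adjusted p = 0.00121, limma). The double mutant was also higher than the Flna-labelled group, by 0.87 on the log2 scale (SE 0.21, adjusted p = 0.0188, limma), a call lost without Flna-labelled replicate 2 (adjusted p = 0.0552) or double mutant replicate 2 (adjusted p = 0.0611).

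Slc11a2 (ENSMUSG00000023030, chromosome 15, 100387898 to 100425072, minus strand), which moves iron from the endosome to the cytosol, went the other way from the receptor. The controls had 43.8, 33.9 and 42.8 CPM, and the Flna-labelled libraries 38.4, 39.5 and 39.4 CPM. The Asb2 cKO had 26.1, 28.0 and 23.4 CPM, and the double mutants 23.9, 24.5 and 27.9 CPM. The groups fall into a higher pair and a lower pair with a gap between them, and within each pair the libraries overlap. Slc11a2 fell by 0.62 on the log2 scale in the Asb2 cKO (SE 0.16, adjusted p = 0.0184, limma), and by 0.64 in the double mutant (SE 0.14, adjusted p = 0.00699, limma). Between the double mutant and the Flna-labelled group it fell by 0.61 (SE 0.11, adjusted p = 0.00361, limma). Leaving out control replicate 1 (adjusted p = 0.0673), control replicate 3 (0.0583) or Asb2 cKO replicate 3 (0.0559) ended the Asb2 cKO call.

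The ferritin chains separated. Fth1 (ENSMUSG00000024661, chromosome 19, 9980598 to 9985098, plus strand), the heavy chain that oxidizes iron for storage, was highest in the controls, at 629, 656 and 610.1 CPM. It was measured at 379, 339 and 464 CPM in Asb2 cKO hearts, 455, 457 and 448 CPM in the Flna-labelled libraries and 379.7, 441 and 352 CPM in the double mutants. All 9 libraries of the other groups lay below the lowest control, between 339 and 464 CPM. Fth1 fell by 0.69 in the Asb2 cKO (SE 0.15, adjusted p = 0.00983, limma) and by 0.70 in the double mutant (SE 0.12, adjusted p = 0.00202, limma). In the Flna-labelled group the difference was -0.48 with an adjusted p of 0.147.

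Ftl1 (ENSMUSG00000050708, chromosome 7, 45457944 to 45459884, minus strand), the light chain, had group means of 143 ± 7.19 CPM in controls, 144 ± 16.4 in the Asb2 cKO, 139 ± 9.14 in the Flna-labelled group and 141 ± 1.11 in the double mutant. The groups overlapped in every comparison with the controls. Its difference from control was 0.00 in the Asb2 cKO (95% interval -0.29 to 0.29) and -0.03 in the double mutant (-0.24 to 0.18). The ratio of Fth1 to Ftl1 RNA per kilobase of gene length was 8.35 ± 0.460 in controls, 5.19 ± 0.750 in the Asb2 cKO, 6.19 ± 0.378 in the Flna-labelled group and 5.27 ± 0.617 in the double mutant, and every library of the other groups lay below the lowest control, at 7.88. Both ferritin genes have near-identical processed copies in the genome, among which a read counter can split or discard reads, so the levels of these genes are uncertain.

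The exporter Slc40a1 (ENSMUSG00000025993, chromosome 1, 45908068 to 45926523, minus strand) was the least abundant of the 10 genes. It stood at 7.44, 6.42 and 8.76 CPM in controls, 6.98, 4.22 and 8.57 CPM in Asb2 cKO hearts, 7.87, 10.9 and 4.70 CPM in the Flna-labelled libraries and 3.84, 4.77 and 5.13 CPM in the double mutants. The double mutants lay below all controls but overlapped the Asb2 cKO and Flna-labelled libraries, which were widely spread. It fell by 0.66 in the double mutant against control (SE 0.21, adjusted p = 0.0378, limma), and in the Asb2 cKO the difference was -0.22 (SE 0.27, adjusted p = 0.58). The double mutant call was lost when any 1 of the 6 libraries was left out (adjusted p 0.0507 to 0.112), and in the authors' deposited table the false discovery rate of Slc40a1 was 0.123.

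The sensor genes did not pass the test in any comparison. Ireb2 (ENSMUSG00000032293, chromosome 9, 54863789 to 54912530, plus strand), which encodes iron regulatory protein 2, had 159 ± 11.0 CPM in controls, 172 ± 4.07 in the Asb2 cKO, 182 ± 4.61 in the Flna-labelled group and 177 ± 8.91 in the double mutant. Aco1 (ENSMUSG00000028405, chromosome 4, 40143081 to 40198338, plus strand) encodes iron regulatory protein 1, which serves as a cytosolic aconitase when it holds an iron-sulfur cluster. Its level was 58.4, 61.1 and 69.4 CPM in controls, 87.5, 63.5 and 73.8 CPM in Asb2 cKO hearts, 78.9, 84.0 and 81.0 CPM in the Flna-labelled libraries, and 73.7, 68.8 and 66.4 CPM in the double mutants. The Flna-labelled libraries lay above all controls and above all double mutants for Aco1. The difference of Aco1 was 0.37 in the Flna-labelled group against control (SE 0.10, adjusted p = 0.292), and double mutants differed from the Flna-labelled group by -0.22 (SE 0.08, adjusted p = 0.0759). For Ireb2 the 95% interval of the difference from control was -0.15 to 0.38 in the Asb2 cKO and -0.07 to 0.38 in the double mutant, on the log2 scale.

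The genes of iron delivery to heme showed the steepest falls among the 10. Slc25a37 (ENSMUSG00000034248, chromosome 14, 69241848 to 69285112, minus strand), the mitochondrial iron importer mitoferrin-1, had 92.2, 65.3 and 105 CPM in controls and 51.0, 59.4 and 59.2 CPM in the Flna-labelled libraries. It had 33.1, 36.5 and 38.9 CPM in Asb2 cKO hearts and 30.1, 29.9 and 34.2 CPM in double mutants. The control, Flna-labelled and Asb2 cKO groups formed descending steps without overlap, and the double mutants overlapped the Asb2 cKO. Slc25a37 fell by 1.24 in the Asb2 cKO (SE 0.18, adjusted p = 0.00135, limma), which is 2.36-fold lower, and by 1.44 in the double mutant (SE 0.17, adjusted p = 0.000321, limma), 2.71-fold lower. Against the Flna-labelled group the double mutant fell by 0.84 (SE 0.11, adjusted p = 0.00107, limma). Hearts were profiled in bulk, so fewer cells of a type cannot be told apart from less RNA per cell.

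Fech (ENSMUSG00000024588, chromosome 18), ferrochelatase, which makes heme from protoporphyrin and iron, followed nearly the same order. It was measured at 75.5, 67.7 and 83.4 CPM in controls, then at 57.1, 54.5 and 57.4 CPM with the Flna label alone, 37.1, 39.1 and 41.3 CPM in Asb2 cKO hearts and 40.6, 35.9 and 44.6 CPM in double mutants. The controls were highest, the Flna-labelled libraries lay between, and the other groups overlapped below them. Fech fell by 0.94 in the Asb2 cKO (SE 0.13, adjusted p = 0.00141, limma), by 0.90 in the double mutant (SE 0.13, adjusted p = 0.000834, limma) and by 0.48 between the double mutant and the Flna-labelled group (SE 0.11, adjusted p = 0.00995, limma).

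Hmox1 (ENSMUSG00000005413, chromosome 8, 75093621 to 75100589, plus strand), whose product heme oxygenase-1 opens the heme ring and frees its iron, rose most among the 10. It had 22.97, 20.96 and 23.0 CPM in controls, 21.6, 25.6 and 31.4 CPM with the Flna label alone, 45.4, 57.3 and 62.2 CPM in Asb2 cKO hearts and 57.1, 42.3 and 53.9 CPM in double mutants. The lowest library with both Asb2 alleles floxed was above the highest Flna-labelled library. Hmox1 rose 2.41-fold in the Asb2 cKO (log2 difference 1.27, SE 0.16, adjusted p = 0.000618, limma) and 2.25-fold in the double mutant (log2 difference 1.17, SE 0.14, adjusted p = 0.000367, limma). It rose by 0.96 between the double mutant and the Flna-labelled group (SE 0.16, adjusted p = 0.00365, limma).

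**Figure D2:**
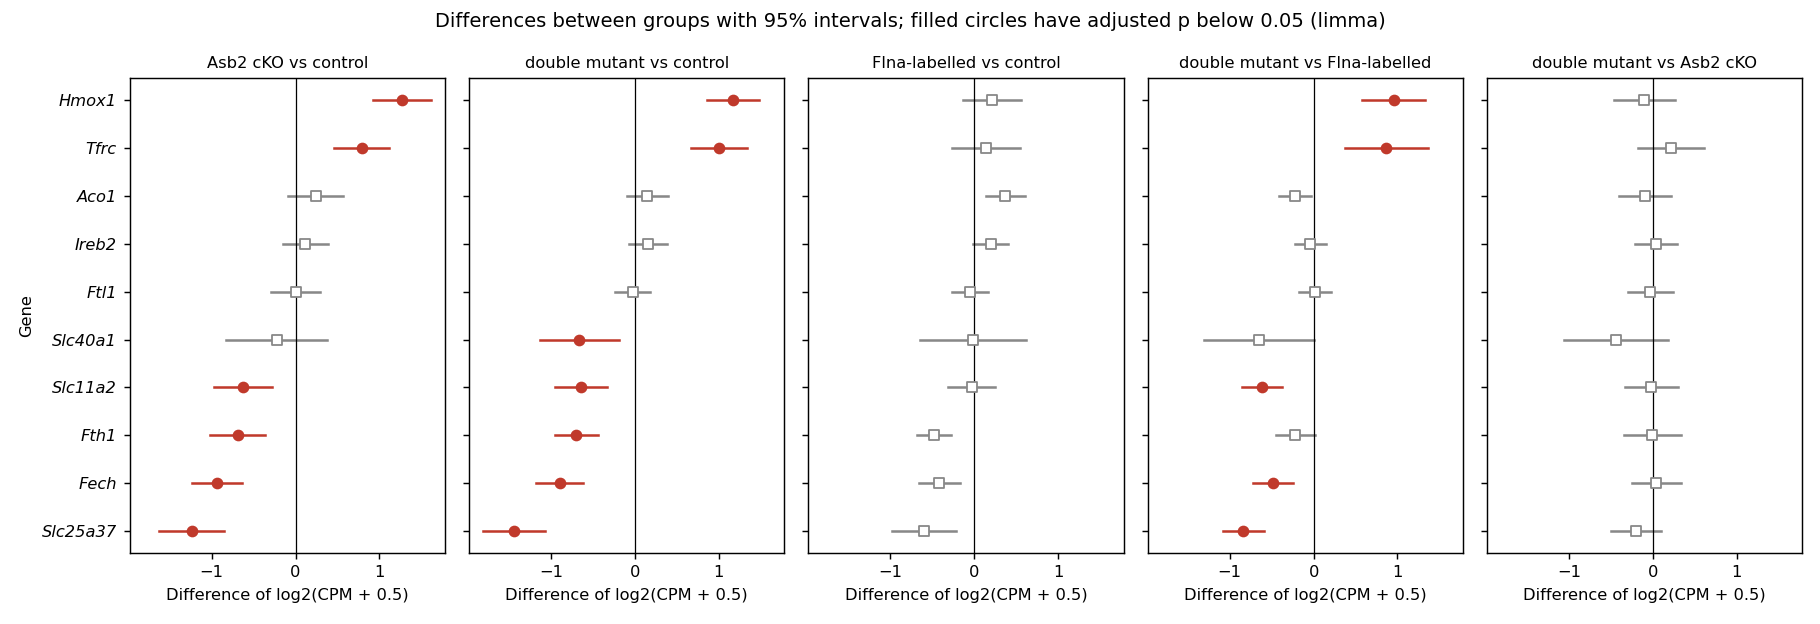
Difference of log2(CPM + 0.5) between groups (horizontal axis) for each gene (vertical axis) in 5 comparisons; bars are 95% intervals from limma, and filled circles have an adjusted p below 0.05. The first 2 panels share the pattern of Hmox1 and Tfrc to the right and Slc25a37, Fech, Fth1 and Slc11a2 to the left, and in the last panel all intervals cover 0.

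Compared per kilobase of the deposited gene length, the control level was highest for Fth1, at 733 ± 26.9 CPM per kilobase, followed by Ftl1 at 87.9 ± 4.41, Tfrc at 45.0 ± 4.02, Ireb2 at 27.5 ± 1.91 and Fech at 26.1 ± 2.71. Below these came Aco1 at 14.1 ± 1.29, Hmox1 at 9.76 ± 0.510, Slc25a37 at 9.18 ± 2.11, Slc11a2 at 6.35 ± 0.863 and Slc40a1 at 2.24 ± 0.348. Of the neighbours in this order, Ireb2 and Fech, Hmox1 and Slc25a37, and Slc25a37 and Slc11a2 overlapped in mean ± SD. Within each control library, though, Ireb2 lay above Fech and Slc25a37 above Slc11a2. In the double mutant Tfrc, at 91.3 ± 17.8 CPM per kilobase, overlapped Ftl1 at 86.2 ± 0.683, and Slc25a37, at 3.30 ± 0.252, lay below Slc11a2 at 4.02 ± 0.346. The ratio of Tfrc to Fth1 RNA per kilobase, uptake over storage, was 0.0616 ± 0.00758 in controls, 0.174 ± 0.0389 in the Asb2 cKO, 0.0961 ± 0.0260 in the Flna-labelled group and 0.203 ± 0.0503 in the double mutant. Each Asb2 cKO and double mutant library had a higher ratio than each library of the other groups.

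With the Flna label alone none of the 10 genes passed limma's test, where 0.072% of 13891 genes did. At an unadjusted p below 0.05 there were 4, Fth1, Fech, Slc25a37 and Aco1, where 1822 of all 13891 genes passed. The differences from control were -0.48 for Fth1 (SE 0.09, adjusted p = 0.147), -0.42 for Fech (SE 0.11, adjusted p = 0.292), -0.60 for Slc25a37 (SE 0.17, adjusted p = 0.292) and 0.14 for Tfrc (SE 0.18, adjusted p = 0.756). The libraries of these groups did not overlap for 5 of the genes, Fth1, Fech and Slc25a37 being lower and Ireb2 and Aco1 higher, where 18% of all genes showed no overlap (9.27% higher and 8.71% lower). DESeq2 on the recovered reads called 3, Fth1 (adjusted p = 8.03e-05), Slc25a37 (0.0319) and Fech (0.0496), all lower, while edgeR's quasi-likelihood test called 0. In the authors' deposited table the false discovery rate was 0.0346 for Slc25a37, 0.0958 for Fth1 and 0.162 for Fech. The median difference of the 10 genes was -0.02, and that of all genes was 0.00. Whether these 3 genes were called in this group thus depends on the test. Slc25a37 and Fech lay between the control and the Asb2 cKO levels in every Flna-labelled library. All 10 cardiomyocyte markers were also lower in this group than in controls (-1.09 to -0.39, median -0.52), with none past the test, and their part in these values was not tested.

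No difference between the double mutant and the Asb2 cKO was detected in the 10 genes. In this comparison limma called 0 of the 10 and edgeR or DESeq2 called 0, where limma called 0.0214% of 14037 genes. At an unadjusted p below 0.05 there were 0 of the 10, where 471 of the 14037 genes passed. For all 10 genes the libraries of these groups overlapped, where 7.88% of all genes showed no overlap. The 95% interval of the difference was -0.18 to 0.61 for Tfrc, -0.35 to 0.34 for Fth1, -0.46 to 0.26 for Hmox1, -0.26 to 0.33 for Fech and -0.50 to 0.09 for Slc25a37 on the log2 scale. These intervals leave room for differences in either direction, and missing the threshold does not show that the groups are alike. For Slc40a1, with the widest interval, the difference was -0.44 (-1.05 to 0.18).

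Between the double mutant and the Flna-labelled group, which differ in Asb2 alone by their labels but overlap in Asb2 RNA, 2 of the 10 genes rose (Hmox1 and Tfrc) and 3 fell (Slc25a37, Slc11a2 and Fech), where 31.5% of 13954 genes changed (15.1% higher and 16.3% lower). Of all genes that changed, 48.1% were higher, and 37.5% were higher after rescaling to the total without hemoglobin genes. Fth1 was not among the genes that fell, with a difference of -0.22 (95% interval -0.45 to 0.01, adjusted p = 0.135, limma). The groups did not overlap for 7 of the 10 genes, where 47.5% of all genes showed no overlap. The median difference was -0.22 for the 10 genes and -0.02 for all genes.

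Whether the difference between 2 floxed Asb2 alleles and 1 depends on the Flna label was tested by an interaction over all 12 libraries. None of the 10 genes was called by limma and 0 by edgeR or DESeq2, and 0% of all 13981 genes were called by limma. At an unadjusted p below 0.05 there were 3 of the 10, where 1372 of the 13981 genes passed. These 3 were Fth1 (0.47, 95% interval 0.10 to 0.85, adjusted p = 0.463), Fech (0.45, 0.11 to 0.79, adjusted p = 0.442) and Aco1 (-0.46, -0.83 to -0.10, adjusted p = 0.456). For Tfrc the interaction was 0.08 (-0.50 to 0.66), and for Hmox1 it was -0.32 (-0.81 to 0.18). Beside these, the interaction of the 10 cardiomyocyte markers ran from 0.52 to 1.21, with none past the test, and their part in it was not tested.

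In the Asb2 cKO and the double mutant, hemoglobin and most red cell transcripts were lower than in controls, as were Slc25a37, Fech, Fth1 and Slc11a2. Tfrc and Hmox1 were higher there. Of 23 primitive erythroid markers, 21 were listed, and their summed level was 7732 to 8458 CPM in controls, 3281 to 4159 in the Flna-labelled libraries, 628 to 1339 in the Asb2 cKO and 523 to 724 in the double mutants. In the Asb2 cKO 19 of the 20 tested fell and none rose, with a median of -2.82, and in the double mutant 19 of 20 fell, with a median of -3.44, where 10.9% and 16.7% of all genes fell. With the Flna label 5 of 21 fell, with a median of -0.85, where 0.072% of all genes changed. The most abundant, the embryonic globin Hbb-y, had a mean of 4093 CPM in controls, 1752 in the Flna-labelled group, 382 in the Asb2 cKO and 241 in the double mutant. The plot of levels beside the hemoglobin share shows that Slc25a37, Fech and Fth1 are highest in the controls, which have the most hemoglobin RNA, and that Tfrc is higher in the 6 libraries with the least hemoglobin RNA than in the other 6. The lowest Tfrc level was in a Flna-labelled library and not in a control. The part of red cell content in the differences of the iron and heme genes was not tested.

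**Figure D3:**
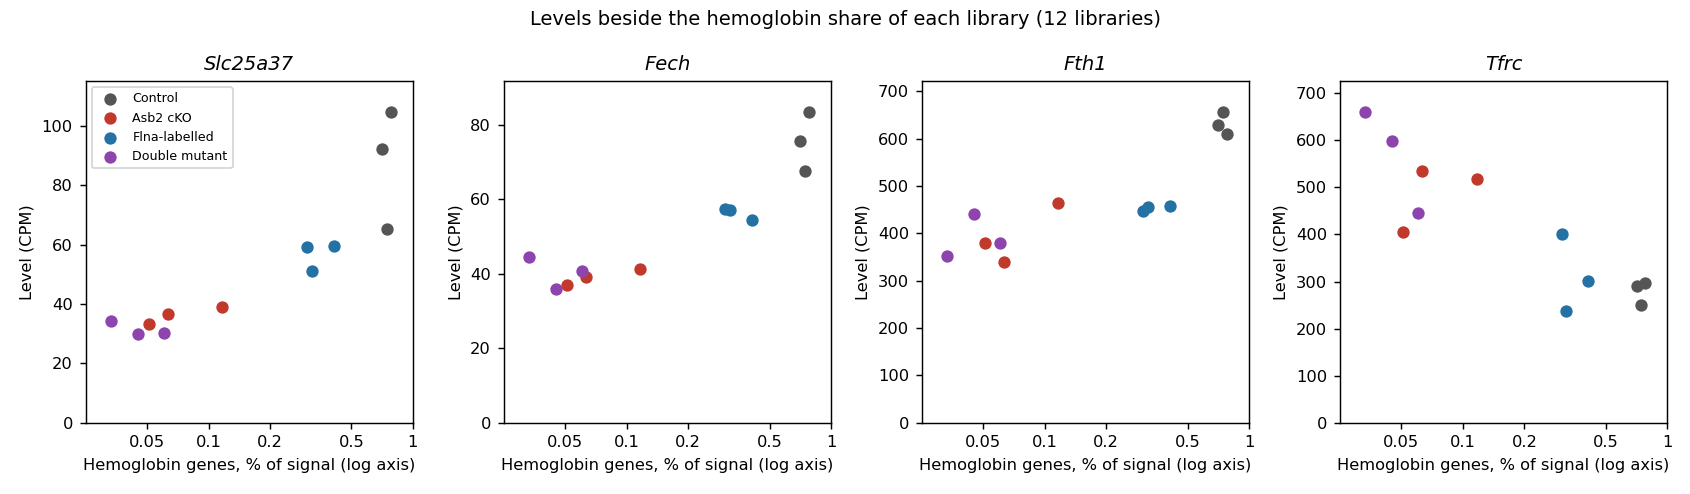
Level in CPM of Slc25a37, Fech, Fth1 and Tfrc (vertical axes, from 0) against the share of hemoglobin genes in the signal of the same library (horizontal axis, percent, log scale); each point is 1 of 12 libraries, coloured by group. The controls sit at 0.708 to 0.782% and the Asb2 cKO and double mutant libraries below 0.12%, with the Flna-labelled libraries between.

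Other cell types known for iron handling had smaller summed marker levels than the red cells. Of 12 macrophage markers 6 were listed, at a summed 8.01 to 11.7 CPM in controls, 5.75 to 8.55 in the Asb2 cKO, 7.97 to 10.4 in the Flna-labelled and 5.56 to 8.67 in the double mutant libraries. Mrc1, Lyve1 and Csf1r were the most abundant, and C1qb and Cx3cr1 were at 0 in at least 1 library. Markers of liver bud and visceral endoderm, 11 of 11 listed, summed to 16.0 to 379 CPM in controls, 41.4 to 150 in the Asb2 cKO, 137 to 492 in the Flna-labelled and 29.1 to 46.6 in the double mutant libraries, with Afp, Rbp4 and Apoa1 leading. All groups overlapped in the macrophage sum, though the Asb2 cKO and the controls shared only 8.01 to 8.55 CPM. In the endoderm sum the controls overlapped every group, the Asb2 cKO shared only 41.4 to 46.6 CPM with the double mutants and 137 to 150 CPM with the Flna-labelled libraries, and the double mutants lay below the Flna-labelled libraries. In the Asb2 cKO 1 of 10 endoderm markers tested rose and 1 fell (median -1.44), where 10.7% of all genes rose and 10.9% fell. In the double mutant 2 of 9 fell and none rose (median -2.5), where 16.7% of all genes fell. With the Flna label 1 of 11 rose and none fell, where 0.072% of all genes changed. Between the double mutant and the Flna-labelled group 7 of 11 fell and none rose (median -2.61), where 16.3% of all genes fell. The part of these cell types in the results was not tested.

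Of 16 other genes of heme synthesis, all tested, 8 fell and none rose in the Asb2 cKO (median -0.61), where 10.9% of all genes fell. In the double mutant 11 fell and none rose (median -0.66), where 16.7% of all genes fell, and the medians of all genes were -0.01 and 0.01. Not all pointed down: Cpox, a later enzyme of the pathway, and Abcb6, a transporter linked to porphyrins, differed by 0.35 and 0.37 in the Asb2 cKO without passing the test. Between the double mutant and the Flna-labelled group Cpox rose by 0.73 (adjusted p = 0.00735, limma). It was the 1 gene of the 16 that rose there, and 8 fell, where 15.1% of all genes rose and 16.3% fell. Alas2, the erythroid form of the rate-limiting synthase, fell from 56.6 ± 9.11 CPM in controls to 8.30 ± 5.82 in the Asb2 cKO (log2 difference -2.88, SE 0.38, adjusted p = 0.00191, limma). In double mutants it reached 4.38 ± 1.42 CPM (-3.57, SE 0.21, adjusted p = 5.51e-06). Its 5′ UTR, on chromosome X, also holds 1 match to the iron-responsive element, which lies across an exon junction. Alas1, the form that other tissues use, fell by 0.74 (SE 0.16, adjusted p = 0.00894) and by 0.69 (SE 0.15, adjusted p = 0.00839). Alad, the next enzyme of the pathway, fell by 1.38 in the Asb2 cKO, and Tmem14c, which carries a porphyrin across the mitochondrial inner membrane, fell by 1.26. In the Flna-labelled group the smallest adjusted p of the list was 0.147, for Alas2, at 28.3 ± 6.49 CPM.

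Of the other iron transport and storage genes, 2 of 19 tested rose and 4 fell in the Asb2 cKO (median -0.00), where 10.7% of all genes rose and 10.9% fell. In the double mutant 1 of 19 rose and 3 fell (median -0.08), where 15.6% of all genes rose and 16.7% fell. Apart from the 4 that fell in the Asb2 cKO, these counts lie near or below the share over all genes. Steap3, the ferrireductase of the erythroid endosome, fell from 11.4 ± 1.21 CPM in controls to 1.50 ± 0.937 in the Asb2 cKO and 0.929 ± 0.0441 in the double mutant (log2 differences -2.71 and -3.05, adjusted p = 0.00114 and 1.88e-05, limma). Hfe2, which encodes hemojuvelin, a coreceptor for BMP signals, fell by 1.94 in the Asb2 cKO and by 1.95 in the double mutant. Slc39a8, which encodes a metal importer of the ZIP family, fell by 0.70 in the Asb2 cKO (adjusted p = 0.00967, limma) and differed by -0.65 in the double mutant (adjusted p = 0.0877). Bmp6, a ligand known for control of hepcidin, rose by 0.80 in the Asb2 cKO (adjusted p = 0.0468) and by 0.89 in the double mutant (adjusted p = 0.00623), and Heph, a ferroxidase that works with ferroportin, rose by 0.46 in the Asb2 cKO (adjusted p = 0.041). Ncoa4, the receptor that delivers ferritin to lysosomes, fell by 0.56 in the double mutant (adjusted p = 0.0354) and differed by -0.04 in the Asb2 cKO (adjusted p = 0.903).

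For heme transport and breakdown, 1 of 9 tested genes rose and 3 fell in the Asb2 cKO, and 1 rose and 2 fell in the double mutant, where 10.7% of all genes rose and 10.9% fell in the former and 15.6% rose and 16.7% fell in the latter. Bach1, which encodes a heme-binding repressor of Hmox1, rose by 0.75 in each of these comparisons (adjusted p = 0.0106 and 0.00428, limma). Blvrb, a biliverdin reductase, fell by 1.15 and 1.04, Blvra, the other one, fell by 0.70 in the Asb2 cKO, and Hmox2, the constitutive heme oxygenase, fell by 0.51 and 0.34. Hmox1 and Bach1 thus rose in the same groups, while Hmox2 and Blvrb fell. The medians of the list were -0.30 and -0.34.

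Iron-sulfur cluster assembly is the other main use of mitochondrial iron. Of 21 genes of this list, 10 fell and 1 rose in each comparison (medians -0.56 and -0.53), and the other 10 did not pass the test. Over all genes, 10.9% fell and 10.7% rose in the Asb2 cKO, and 16.7% fell and 15.6% rose in the double mutant. Glrx5, a glutaredoxin that passes clusters on, fell from 193 ± 24.9 CPM in controls to 88.8 ± 15.6 in the Asb2 cKO and 93.5 ± 17.7 in the double mutant. Bola3, which helps pass clusters to mitochondrial enzymes, fell by 1.05 and 0.94, and Ciapin1, of the cytosolic assembly machinery, fell by 0.95 and 0.70. Hscb, a cochaperone of cluster transfer, rose by 1.06 (adjusted p = 0.00818) and 1.01 (adjusted p = 0.00365). In the Flna-labelled group the smallest adjusted p of the list was 0.292, for Cisd1, a cluster protein of the outer mitochondrial membrane.

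The transcription programmes known to act on Tfrc and Hmox1 differed from each other. Of 15 genes induced by hypoxia-inducible factor (HIF), for which Tfrc and Hmox1 are known as targets, 14 rose and none fell in both comparisons with the controls, with medians of 2.06 and 2.09, where 10.7% and 15.6% of all genes rose. Ndufa4l2 rose from 2.50 ± 0.667 CPM to 66.9 ± 13.7 in the Asb2 cKO and 76.8 ± 8.28 in the double mutant. NRF2 also acts on Hmox1, Fth1 and Ftl1. Of the genes it drives, 1 of 11 rose and 6 fell in the Asb2 cKO (median -0.55). In the double mutant 1 of 10 rose and 7 fell (median -0.59). Over all genes, 10.7% rose and 10.9% fell in the Asb2 cKO, and 15.6% rose and 16.7% fell in the double mutant. The NRF2 gene that rose was Slc7a11, a cystine importer, from 1.16 ± 0.663 CPM to 5.03 ± 1.73 and 8.21 ± 3.72. Txnrd1, thioredoxin reductase 1, fell by 0.60 (adjusted p = 0.0455) and by 0.93 (adjusted p = 0.000215, limma). In the Flna-labelled group the smallest adjusted p was 0.321 among the HIF genes (Ndrg1) and 0.292 among the NRF2 genes (Me1). The part of either programme in the levels of Tfrc, Hmox1 and the ferritin genes was not tested.

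**Figure D4:**
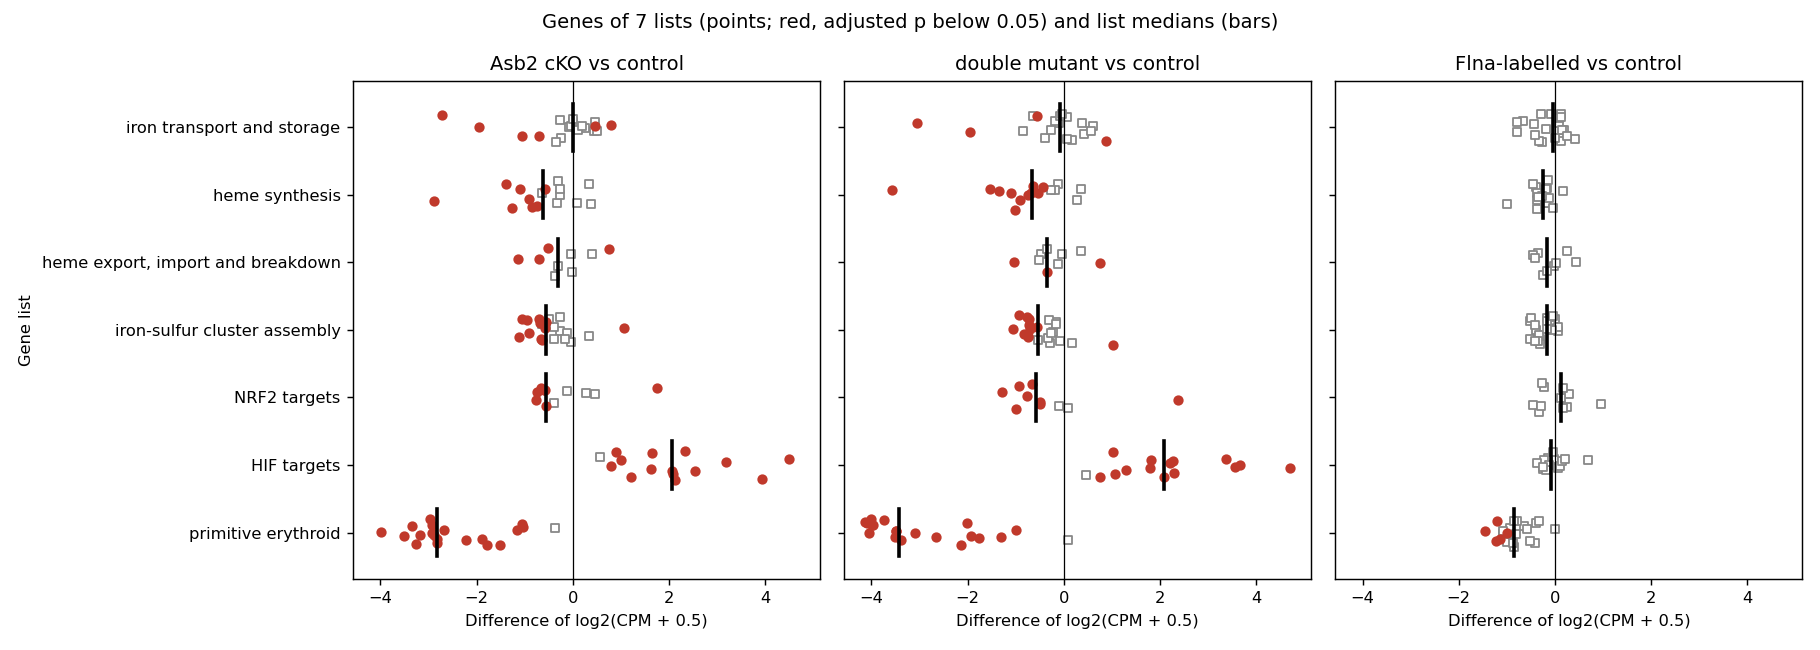
Difference of log2(CPM + 0.5) from control (horizontal axis) for the genes of 7 lists (vertical axis) in the Asb2 cKO, the double mutant and the Flna-labelled group; points are genes, red where the adjusted p was below 0.05, and bars are list medians. The HIF list lies to the right (medians 2.06 and 2.09) and the erythroid list to the left (-2.82 and -3.44) in the first 2 panels, with the heme synthesis and iron-sulfur lists at medians of -0.53 to -0.66.

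RefSeq promoter windows (GRCm38.p6, 250 bases before to 50 after a start) were found for 5 of the 10 genes, Tfrc, Fth1, Ftl1, Ireb2 and Aco1, in 7 windows. Searched on both strands, ACGTG, the core of the hypoxia response element, stands in 19.6% of 32851 promoters, and the variant GCGTG in 32.4%. Tfrc holds ACGTG, at chr16:32608882-32608911, plus strand, where it begins 2 bases before the upstream start, which it spans, and 228 bases before the other. It is shown because Tfrc rose together with the HIF list, with the motif in capitals.
Tfrc: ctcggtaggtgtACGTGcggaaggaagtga
Tfrc also holds GCGTG, 4 times over both windows, and Fth1 and Ftl1 hold it once each. The motif TGACNNNGC, bound by NRF2 and BACH1, stands in 12.4% of promoters and in none of the 7 windows. A match describes letters and is not evidence of a bound site, and no match says only that the letters are not in this window.

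The genes with the most similar pattern to each of the 10 were ranked by Pearson's r of log2(CPM + 0.5) over the 12 libraries, among 13981 genes. The libraries fall into the genotype groups and share depth and red cell content, so r is a description. Slc25a37 was most like Car2, the red cell carbonic anhydrase (r = 0.975), and then Fech (r = 0.971), and Fech was most like Slc25a37 and Glrx (0.971). Car2 had means of 61.9, 12.8, 30.4 and 9.46 CPM in the controls, Asb2 cKO, Flna-labelled group and double mutant, which is the order of Slc25a37. Hmox1 was most like Maff, a small MAF factor (r = 0.974), and Bcar1 (0.972), and Tfrc was most like Npepps (0.968) and Mllt4 (0.962). Slc11a2 was most like Txndc11 (0.975) and Atp6v0a2, a subunit of the endosomal proton pump (0.972), and Fth1 like Atp5k (0.975) and Tprgl (0.963). The highest r was lower for the other genes, at 0.860 for Ftl1 with Plcg2, 0.919 for Slc40a1 with Coro1b, 0.934 for Ireb2 with Chd4 and Khsrp, and 0.938 for Aco1 with Ephb1.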

How the data were processed

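Hearts of mouse embryos were profiled by RNA sequencing of total RNA. The submitters' processing notes name STAR, HTSeq, edgeR and mm10, without versions or roles. The 4 deposited tables list 15211, 15005, 15172 and 15124 genes, each for 2 groups. They were joined on gene identifier, since a library found in several tables differed by at most 4.4e-06 CPM. The authors' deposited expression values are named CPM but carry the unit signal here, because columns sum to 942334 to 1051800 (the planned unit was CPM). All values (100.0%) were whole multiples of 1 read within 0.01 read, so reads could be recovered. The rule by which the authors left genes out of a table is not given in the sources used here, nor is the use of strand in counting. Deposited log2 fold changes and p-values come from the authors' own tables. The deposited gene length, unit other, was used for levels per kilobase. Beyond these, 12 columns without headers were not used.

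The 5 comparisons and the interaction were tested by limma 3.58.1 (R 4.3.3, trend and robust settings) on log2(CPM + 0.5). Genes entered a fit if they averaged 1 CPM or more in its libraries, and 0.05 on adjusted p was the threshold. Alternatives were other pseudocounts, filters and scalings, edgeR 4.0.16, DESeq2 1.42.0, a replicate block, a joint fit, and leaving out each library. A covariate for Xist and removal of a trend over gene length (lowess, span 0.3) were added after the data were seen. Replicates differed by more than sampling noise (mean chi-square per gene 20.3 to 117). The fit was also run on simulated counts with the same dispersion for every gene. That setting is simpler than these libraries, so the run is not used as support for the calls. The genes and lists were chosen with earlier results of these data known. Every one of the 10 genes is named, and genes of each other list are drawn from the up to 4 with the smallest p among those past the threshold in a comparison, or the 1 with the smallest p; from each marker list up to 3 with the highest mean, and for likeness the 2 genes with the highest r. Alas1, Cpox, Abcb6, Hscb, C1qb and Cx3cr1 are named outside this rule, after their values were seen. Some genes are not reported here. Tables were handled with python 3.11.15, pandas 2.3.3 and numpy 2.4.6, and plots made with matplotlib 3.10.9.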

Additional observations from a re-analysis of the deposited data

How the results depend on the processing

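The 10 iron and heme genes gave 1190 results under alternative settings. Of these, 1169 kept their side of the threshold, 16 lost a call, 5 gained one and 0 reversed. Among the 1169, 52 that were uncalled in both fits changed sign, with a main value of at most 0.223 in size. Calls that hold in all 19 settings of a comparison are those of Hmox1, Slc25a37, Fech, Tfrc and Fth1 against control in the Asb2 cKO and double mutant, and of Slc11a2 in the double mutant, and those of Slc11a2, Hmox1, Fech and Slc25a37 in the double mutant against the Flna-labelled group. Slc40a1 in the double mutant also lost its call with the joint fit of the 4 groups (adjusted p = 0.101), Xist as a covariate (0.151) and the gene length trend removed (0.0533). Between the double mutant and the Flna-labelled group, Slc40a1 was called without Flna-labelled replicate 3 (-0.95, adjusted p = 0.0161), and Aco1 with the total without hemoglobin genes (-0.30, adjusted p = 0.0446). The setting with that total also replaces the deposited scaling of the libraries, so its results do not isolate hemoglobin content. Replicate numbers were not taken to pair the libraries. Once group means were taken off, the correlation of same-numbered libraries ran from -0.465 to 0.426, and 0 of 6 pairs of groups had all 3 values over 0.1. For the Flna-labelled group and the double mutant the values were all positive, from 0.032 to 0.426. With the replicate block the Asb2 cKO against control had 1557 called genes in place of 3033, and the Flna-labelled group 1 in place of 10. The double mutant against control had 4358 in place of 4523, while against the Flna-labelled group it had more, 5474 in place of 4394. The block also ended the calls of Slc11a2 in the Asb2 cKO (adjusted p = 0.0636) and Slc40a1 in the double mutant (0.056). For the Flna-labelled group against control, the count over all genes was 5 with the total without hemoglobin genes, 0 without trend or robust, 2 by edgeR, 244 by DESeq2 (3 of the 10 genes), 2 in the joint fit, 0 with Xist as a covariate and 6 with the length trend removed. For the double mutant against the Asb2 cKO it was 3, and 14 by DESeq2 and 0 in the joint fit. For the interaction it was 0 (1372 at an unadjusted p below 0.05), and 71 by DESeq2 and 5 with Xist as a covariate. Leaving out 1 library gave 1580 to 2511 calls for the Asb2 cKO against control, 0 to 98 for the Flna-labelled group, 2883 to 4347 for the double mutant (main 4523), 2 to 26 for the double mutant against the Asb2 cKO, 2710 to 4638 for the double mutant against the Flna-labelled group (main 4394) and 0 to 18 for the interaction. The counts that moved by over 1.5 times were those for the Asb2 cKO without control replicate 1 (1782), control replicate 2 (1580) or Asb2 cKO replicate 2 (2009), and for the Flna-labelled group without control replicate 1 (1), 2 (1) or 3 (0) or its own replicate 1 (3) or 3 (98). They were also those for the double mutant without its replicate 2 (2883), for the double mutant against the Asb2 cKO without Asb2 cKO replicate 2 (26), and for the double mutant against the Flna-labelled group without Flna-labelled replicate 1 (2801) or 2 (2780) or double mutant replicate 2 (2710). For the interaction they were those without Asb2 cKO replicate 2 (18) or Flna-labelled replicate 2 (1). The cause of these changes was not tested. With 3 libraries a group, differences smaller than the intervals may go unseen.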
